A study of Mus musculus with 6 samples.

Results

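The C/EBP factors and Gfi1, a set that includes regulators of the granulocyte and monocyte lines, were followed on 6 arrays of mouse bone marrow. The set was drawn up by name as Cebpa, Cebpb, Cebpd, Cebpe, Cebpg, Cebpz and Gfi1, 7 genes in all. A gene counted as measured when a probe set of the array was annotated with its symbol and no other, and 6 of the 7 were measured, each by 1 probe set, among 19938 measured genes. Cebpz had no such probe set and was not analysed here. In the HoxA9AA/Meis1 group, 3 lethally irradiated CD45.1+ recipients had been given CD45.2+ LSK cells (a fraction of marrow rich in stem and progenitor cells) transduced with Meis1 and HoxA9AA-GFP. In the HoxA9wt/Meis1 group, 3 recipients of the same kind had been given LSK cells transduced with Meis1 and HoxA9wt-GFP. All 6 mice therefore carried introduced Meis1 and a form of introduced HoxA9, and no marrow without them was compared. RNA came from bone marrow cells taken at disease onset, with no sorting for donor cells in the labels. What AA stands for is not said there, and age, sex and strain are not given.

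The C/EBP proteins of the measured genes are basic leucine zipper factors that bind DNA as dimers with each other or with related factors. C/EBPα drives the step from early progenitors to granulocyte and monocyte precursors, and C/EBPε is needed for the later granule proteins of neutrophils. Gfi1 is a zinc finger repressor that favours the neutrophil over the monocyte line and holds down genes of stem cells. In mouse models, leukaemia driven by Hoxa9 and Meis1 has been reported to depend on C/EBPα.

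Cebpa and Cebpg are neighbours on chromosome 7, and their upstream sequences are shown because the pair had opposite mean differences below. The sequence before Gfi1 is shown because its values followed those of Cebpe, which encodes a C/EBP factor. Each sequence is the 250 bases before a transcription start, taken from RefSeq (GRCm38.p6) and written 5′ to 3′ on the strand of the gene. Promoters of 4 of the 7 genes were in the table, those of Cebpa, Cebpb, Cebpg and Gfi1. Capitals mark matches, on either strand, to the CCAAT box (CCAAT), a C/EBP motif (TTNCNNAA), a GFI1 motif (AATCNNNGC) or the TATA box (TATAAA), and none of the marked matches overlap.
Cebpa, chr7:35119043-35119292, plus strand: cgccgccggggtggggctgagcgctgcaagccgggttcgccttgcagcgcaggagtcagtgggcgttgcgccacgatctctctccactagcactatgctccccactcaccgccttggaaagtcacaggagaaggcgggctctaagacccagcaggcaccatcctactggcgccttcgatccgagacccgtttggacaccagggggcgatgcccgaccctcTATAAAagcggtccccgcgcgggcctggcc
Cebpg, chr7:35056567-35056816, minus strand: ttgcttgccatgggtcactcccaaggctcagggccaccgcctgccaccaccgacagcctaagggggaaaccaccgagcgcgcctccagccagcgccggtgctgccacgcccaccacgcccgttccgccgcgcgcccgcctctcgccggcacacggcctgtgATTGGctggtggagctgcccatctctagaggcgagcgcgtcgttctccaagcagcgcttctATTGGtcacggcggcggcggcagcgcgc
Gfi1, chr5:107725806-107726055, minus strand: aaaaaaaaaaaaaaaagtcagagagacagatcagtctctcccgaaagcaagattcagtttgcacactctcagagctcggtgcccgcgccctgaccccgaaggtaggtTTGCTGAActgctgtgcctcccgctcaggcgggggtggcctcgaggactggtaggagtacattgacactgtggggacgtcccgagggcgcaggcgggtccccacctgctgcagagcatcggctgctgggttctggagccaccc
The window of Cebpg held 2 CCAAT boxes, written ATTGG on the strand shown, 85 to 89 and 24 to 28 bases before the start. A CCAAT box stood in 33.8% of 32851 windows of this length, and 2 or more in 10.1%. The window of Cebpa held a TATA box 25 to 30 bases before the start, as did 12.4% of all windows at any place. The window of Gfi1 held 1 match to the C/EBP motif, 136 to 143 bases before the start, and such a match stood in 36.8% of all windows. The window before the other listed start of Gfi1 and that of Cebpb held no match to any of the 4 motifs. A match of letters is a description and shows no binding.

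Expression is given in log2 units after RMA, and 1 unit stands for a doubling. The HoxA9AA/Meis1 arrays correlated less with each other than the HoxA9wt/Meis1 arrays did. Across genes, which are not independent replicates, the correlations among the HoxA9AA arrays were 0.9661 (replicates 1 and 2), 0.9631 (1 and 3) and 0.9724 (2 and 3). The HoxA9AA arrays correlated with the HoxA9wt arrays at 0.9576 to 0.9659 for replicate 1, 0.9894 to 0.9906 for replicate 2 and 0.9684 to 0.9701 for replicate 3, against 0.9866 to 0.9904 among the HoxA9wt arrays. The median of 1027 olfactory receptor genes, a measure of background, lay between 4.80 and 4.88, and 95% of those genes had a mean under 6.57. All 6 measured members lay above that level on every array. Markers of haematopoietic marrow were present, with 0 of 9 primary granule genes and 1 of 12 monocyte genes under 6.57, whereas 5 of 9 B cell genes and 5 of 8 T and NK cell genes lay under it, Cd79a, Ms4a1, Cd3d and Cd3g among them.

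**Figure D1:**
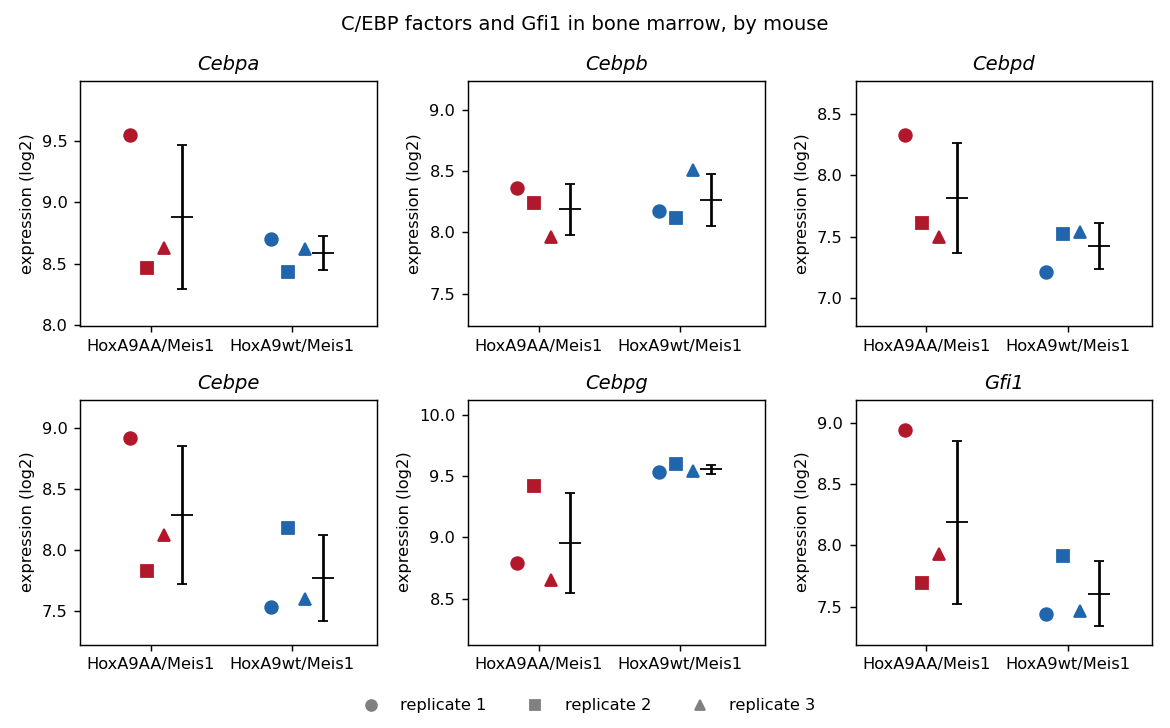
Expression (log2, vertical axes, each spanning 2 units) of the 6 measured genes in HoxA9AA/Meis1 marrow (left, red) and HoxA9wt/Meis1 marrow (right, blue); each symbol is a mouse, with mean ± SD of the group drawn beside (n = 3). Replicate 1 of HoxA9AA is the highest mouse for Cebpa (9.55), Cebpd (8.33), Cebpe (8.92) and Gfi1 (8.94), and Cebpg lies lower in all 3 HoxA9AA mice (8.65 to 9.42) than in any HoxA9wt mouse (9.53 to 9.60).

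No member passed the test between the groups. With limma and Benjamini-Hochberg adjustment over all genes, 0 of 19938 genes (0%) had an adjusted p under 0.05, so 0 of the 6 members did. At an unadjusted p under 0.05 the test picked 1344 genes, or 6.74%, and among the members Cebpg alone. In 4 of the 6, Cebpa, Cebpd, Cebpe and Gfi1, the mean was higher in HoxA9AA/Meis1 marrow, where 52.7% of all genes had a higher mean, and in Cebpb and Cebpg it was lower. The median difference over the 6 was 0.34, against 0.01 over all genes, and without HoxA9AA replicate 1 it was 0.047. With array weights it was 0.19. HoxA9AA replicate 1 was the highest of the 6 mice in the same 4 members, where it was the highest for 31.9% of all genes. HoxA9AA replicate 2 was the HoxA9AA mouse nearest to the HoxA9wt mean in Cebpb, Cebpe, Cebpg and Gfi1, 4 of the 6, against 48.5% of all genes. In whole marrow, fewer cells of a type and less RNA per cell cannot be told apart.

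Cebpa, the regulator of the entry into the granulocyte and monocyte lines, measured 9.55, 8.46 and 8.63 in the 3 HoxA9AA/Meis1 mice, against 8.70, 8.43 and 8.62 in the HoxA9wt/Meis1 mice. HoxA9AA replicate 1 was high, and the other 2 lay within the HoxA9wt range. The group means were 8.88 ± 0.59 and 8.58 ± 0.14 (SD, n = 3 each), a difference of 0.30 ± 0.28 (SE; limma, adjusted p = 0.891) with a 95% interval of −0.38 to 0.98. Without HoxA9AA replicate 1 the difference was −0.038.

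Cebpe, the C/EBP factor of late neutrophil maturation, measured 8.92, 7.83 and 8.12 in HoxA9AA/Meis1 marrow, against 7.54, 8.18 and 7.60 in HoxA9wt/Meis1 marrow. Replicate 1 of the HoxA9AA group was again the high mouse, and HoxA9wt replicate 2 lay above the other 2 HoxA9AA mice, so that the groups overlapped. The means were 8.29 ± 0.56 and 7.77 ± 0.35 (SD, n = 3 each), and the difference was 0.52 ± 0.31 (SE; limma, adjusted p = 0.794; 95% interval −0.23 to 1.26).

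Gfi1, the repressor that opposes the monocyte line, measured 8.94, 7.69 and 7.93 in HoxA9AA/Meis1 marrow, against 7.44, 7.91 and 7.46 in HoxA9wt/Meis1 marrow. Its order over the mice was nearly that of Cebpe, with HoxA9AA replicate 1 far above the rest and HoxA9wt replicates 1 and 3 lowest. The means were 8.19 ± 0.66 and 7.60 ± 0.27 (SD, n = 3 each), and the difference of 0.58 ± 0.33 (SE; limma, adjusted p = 0.782) had a 95% interval of −0.21 to 1.38. Without HoxA9AA replicate 1 the difference was 0.21 for Gfi1 and 0.20 for Cebpe, and without HoxA9AA replicate 2 it was 0.83 and 0.75.

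Cebpd, which encodes an inducible C/EBP factor of the acute phase response, measured 8.33, 7.61 and 7.50 in HoxA9AA/Meis1 marrow, against 7.21, 7.52 and 7.54 in HoxA9wt/Meis1 marrow. The values overlapped, since HoxA9AA replicate 3 lay below 2 of the HoxA9wt mice. The difference was 0.39 ± 0.23 (SE; limma, adjusted p = 0.794; 95% interval −0.17 to 0.95), and 0.13 without HoxA9AA replicate 1.

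Cebpb, the C/EBP factor of macrophages and of emergency granulopoiesis, measured 8.36, 8.24 and 7.96 in HoxA9AA/Meis1 marrow, against 8.17, 8.12 and 8.51 in HoxA9wt/Meis1 marrow. It varied least over the 6 mice among the measured members, with a range of 0.55, and both its highest mouse and its second lowest belonged to the HoxA9wt group. The difference was −0.08 ± 0.15 (SE; limma, adjusted p = 0.962; 95% interval −0.45 to 0.29), and its sign turned without HoxA9AA replicate 3 (0.033) or without HoxA9wt replicate 3 (0.042).

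Cebpg encodes a short C/EBP protein that lacks a transactivation domain and pairs with other zipper factors, ATF4 among them. It measured 8.79, 9.42 and 8.65 in HoxA9AA/Meis1 marrow, against 9.53, 9.60 and 9.54 in HoxA9wt/Meis1 marrow. All 3 HoxA9AA mice lay below the HoxA9wt mice, though replicate 2 by only 0.11, and the groups did not overlap in 4.8% of all genes in this direction. The means were 8.95 ± 0.41 and 9.56 ± 0.04 (SD, n = 3 each). The difference of −0.60 ± 0.20 (SE) was 0.658 times on a linear scale, with a 95% interval of −1.09 to −0.12, and did not pass (limma, unadjusted p = 0.0217, adjusted p = 0.731). An exact permutation test gave p = 0.1 (two-sided), the smallest value that 3 mice against 3 allow. Leaving out any single mouse kept Cebpg lower, at −0.84 to −0.45, and its lowest adjusted p (limma) was 0.0572, without HoxA9AA replicate 2.

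The spread among the HoxA9AA mice was larger than among the HoxA9wt mice for 5 of the 6 members, all but Cebpb, as it was for 70.8% of all genes. Cebpg was the extreme, with an SD 10.8 times that of the 3 HoxA9wt mice, whose values lay within 0.07 of each other. For Cebpa the factor was 4.23.

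**Figure D2:**
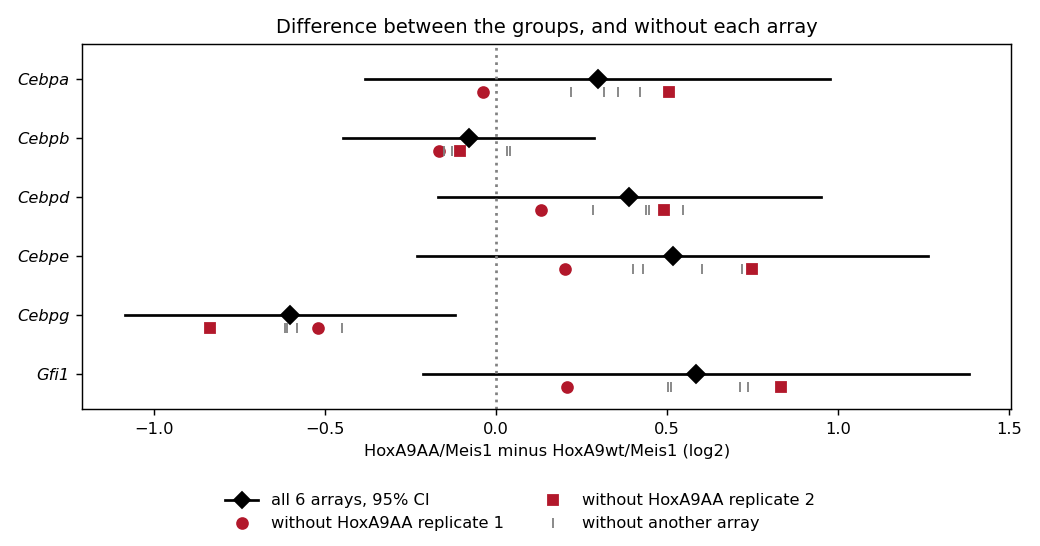
Differences between HoxA9AA/Meis1 and HoxA9wt/Meis1 marrow (log2, horizontal axis) for the 6 measured genes; diamonds with lines are the estimates from all 6 arrays with 95% intervals, and the marks under them the estimates without each array in turn. Without HoxA9AA replicate 1 the differences of Cebpa, Cebpd, Cebpe and Gfi1 lie at −0.038, 0.13, 0.20 and 0.21, and Cebpg stays between −0.84 and −0.45.

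The profiles of Gfi1 and Cebpe over the 6 mice were close to each other and to that of a granule protease gene. Likeness was measured as the root mean square difference between the values of 2 genes over the 6 arrays, each minus its own mean, among 10164 genes at or above the median level. The gene most like Cebpe was Gfi1 (0.088), followed by Prtn3, which encodes proteinase 3 of primary granules (0.104), and Rgcc, a regulator of the cell cycle (0.122). The genes most like Gfi1 were Prtn3 (0.064), Cebpe (0.088) and Rgcc (0.112). Prtn3 measured 10.40, 9.23 and 9.33 in HoxA9AA/Meis1 marrow, against 9.03, 9.45 and 8.92 in HoxA9wt/Meis1 marrow. HoxA9AA replicate 1 was the mouse farthest from the mean in all 3 genes. Csf3r, the gene of the G-CSF receptor, was in place 7 for Gfi1 (0.147) and place 16 for Cebpe (0.177).

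The other members had other nearest genes. For Cebpa they were the haem transporter gene Slc48a1 (0.047), the ETS factor gene Elk1 (0.056) and Eaf1 (0.087), and for Cebpd they were Erich5 (0.078), Agtrap (0.081) and the Krüppel-like factor gene Klf5 (0.085). Cebpa and Cebpd were closer to each other (0.210) than Cebpa was to Gfi1 (0.276) or Cebpe (0.306). Cebpd was nearly as close to Cebpe (0.225) and Gfi1 (0.229) as to Cebpa. By likeness Cebpd was only in place 175 for Cebpa, and Cebpa in place 403 for Cebpd. Cebpg lay far from all of these, at 0.815 from Gfi1, which put Gfi1 in place 9798 of the 10164 genes. Cebpg varied too little for the rule that named like genes, which asked for a range of 1 or more, and its nearest genes were looked up after its values were seen. They were Mindy3 (0.052), Ppil4 (0.063) and Ppp4r3b (0.064), all lower in the mean in HoxA9AA/Meis1 marrow, by −0.58, −0.62 and −0.53.

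**Figure D3:**
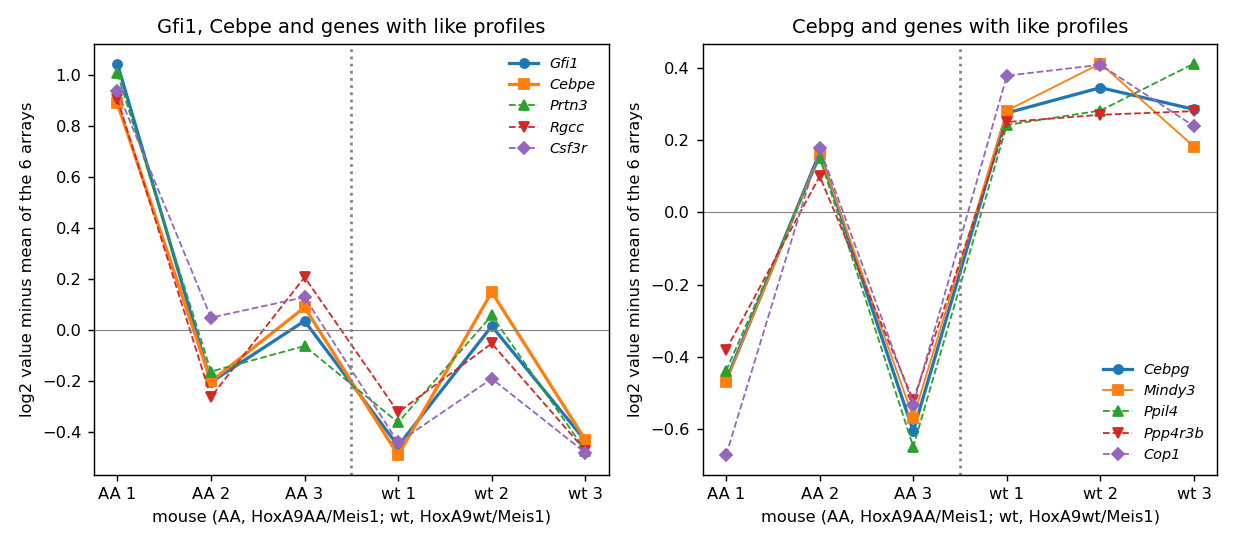
Profiles over the 6 mice (vertical axes: log2 value minus the gene's mean over the 6 arrays) of Gfi1, Cebpe and genes with like profiles (left panel) and of Cebpg and genes with like profiles (right panel); HoxA9AA mice stand left of HoxA9wt mice, and lines only join the points of a gene. Gfi1, Cebpe and Prtn3 peak in HoxA9AA replicate 1 and lie low in HoxA9wt replicates 1 and 3, and Cebpg and Cop1 lie low in HoxA9AA replicates 1 and 3.

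The genes beside the members along the chromosomes were compared with them array by array. Cebpg and Cebpa lie next to each other among the measured genes of chromosome 7, and their mean differences were −0.60 and 0.30, the second turning to −0.038 without HoxA9AA replicate 1. Cebpb lies on chromosome 2, Gfi1 on chromosome 5, Cebpe on chromosome 14 and Cebpd on chromosome 16 (RefSeq, GRCm38.p6). Over the 10 measured genes on each side of a member, the median deviation from the HoxA9wt mean lay between −0.123 and 0.137 in every HoxA9AA array and for each of the 6 members. Evi5, a cell cycle gene next to Gfi1 on chromosome 5, measured 7.92, 8.63 and 7.40 in HoxA9AA/Meis1 marrow, against 8.66, 8.69 and 8.73 in HoxA9wt/Meis1 marrow. Its groups did not overlap, and its difference of −0.71 had the opposite sign to that of Gfi1 and did not pass (limma, adjusted p = 0.731). On the other side of Gfi1, Rpap2 differed by 0.04. Slc7a8, an amino acid transporter gene next to Cebpe, differed by 0.66 (limma, adjusted p = 0.731), with overlapping groups, and 1700123O20Rik on its other side differed by 0.29, both higher like Cebpe. Spidr beside Cebpd measured 9.44, 9.20 and 8.86 in HoxA9AA/Meis1 marrow, against 8.68, 9.02 and 8.91 in HoxA9wt/Meis1 marrow. Like Cebpd, it was highest in HoxA9AA replicate 1, as were 31.9% of all genes, and lowest in HoxA9wt replicate 1. The remaining neighbours, Pepd, Slc7a10, Tmem189, A530013C23Rik and Mzt2, differed by −0.14 to 0.17.

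Among 18 genes that regulate or bind C/EBP factors, 3 had a higher and 2 a lower mean at an unadjusted p under 0.05, where the shares over all genes were 4.15% and 2.59%, and none passed the adjustment. The median difference of the 18 was 0.08. Leaving out 1 mouse at a time gave 1 to 3 higher genes at that level, with 1 without HoxA9wt replicate 1. It gave 0 to 2 lower genes, with 0 without HoxA9AA replicate 3 or HoxA9wt replicate 1, and 1 without HoxA9AA replicate 1 or HoxA9wt replicate 2 or 3. Cop1 encodes a ubiquitin ligase that acts with Tribbles proteins to remove C/EBPα. It measured 9.77, 10.62 and 9.91 in HoxA9AA/Meis1 marrow, against 10.82, 10.85 and 10.68 in HoxA9wt/Meis1 marrow. As for Cebpg, to which it stood in place 19 of likeness (0.104), the groups did not overlap, with HoxA9AA replicate 2 close to the HoxA9wt mice. Its difference was −0.68 ± 0.22 (SE; limma, adjusted p = 0.731).

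Runx1, a factor that acts upstream of Cebpa in progenitors, measured 10.34, 9.45 and 9.61 in HoxA9AA/Meis1 marrow, against 8.92, 9.09 and 9.19 in HoxA9wt/Meis1 marrow. All 3 HoxA9AA mice lay above the HoxA9wt mice, as in 6.6% of all genes, and the difference was 0.73 ± 0.24 (SE; limma, adjusted p = 0.731). Without HoxA9AA replicate 1 it was 0.46. Cdk2, a kinase of the cell cycle that C/EBPα binds, differed by 0.59 and the progenitor factor gene Myb by 0.49, or by 0.31 without HoxA9AA replicate 1. Fos, which encodes a zipper partner, measured 6.52, 6.58 and 5.95 in HoxA9AA/Meis1 marrow, against 6.89, 6.73 and 7.55 in HoxA9wt/Meis1 marrow. HoxA9AA replicates 1 and 3 lay under the background level of 6.57, and replicate 2 just above it. The fitted difference of −0.71 is therefore against a level near background, and it was −0.46 without HoxA9wt replicate 3.

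Of 12 relatives and partners of Gfi1, 8 had a higher mean in HoxA9AA/Meis1 marrow, against 52.7% of all genes, and the median difference was 0.05. Of the 12, 1 was higher at an unadjusted p under 0.05, against 4.15% of all genes. The number at that level was 0 without replicate 1 or 3 of either group and 2 without HoxA9AA replicate 2. With all mice the gene was Rcor1, the CoREST scaffold through which Gfi1 recruits a histone demethylase. It measured 9.76, 9.37 and 9.85 in HoxA9AA/Meis1 marrow, against 9.26, 9.37 and 9.17 in HoxA9wt/Meis1 marrow. HoxA9AA replicate 2 equalled the highest HoxA9wt mouse, and the difference of 0.39 did not pass (limma, adjusted p = 0.731). Kdm1a, the demethylase itself, differed by 0.20, the histone methyltransferase gene Ehmt2 by 0.26 and Pias3 by 0.11.

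Reported C/EBP targets went both ways. Of 25 such genes 14 had a higher mean, 4 of them at an unadjusted p under 0.05, and 11 a lower mean, 2 at that level. Over all genes, 52.7% had a higher mean, and the shares at that level were 4.15% higher and 2.59% lower. None of the 25 passed the adjustment, and their median difference was 0.08. Csf3r measured 9.53, 8.64 and 8.72 in HoxA9AA/Meis1 marrow, against 8.15, 8.40 and 8.11 in HoxA9wt/Meis1 marrow. All 3 HoxA9AA mice were higher, by 0.74 ± 0.25 in the mean (SE; limma, adjusted p = 0.731), and by 0.46 without replicate 1. Pglyrp1, a peptidoglycan recognition protein of neutrophil granules, was also higher in all 3, with 11.47, 10.62 and 10.87 in HoxA9AA/Meis1 marrow, against 9.98, 10.55 and 8.93 in HoxA9wt/Meis1 marrow. Its difference was 1.17, and 0.72 without HoxA9wt replicate 3.

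Cybb, a subunit of the phagocyte oxidase, pointed the other way and measured 11.15, 12.23 and 10.99 in HoxA9AA/Meis1 marrow, against 12.48, 12.28 and 12.37 in HoxA9wt/Meis1 marrow. Its difference was −0.92 (limma, adjusted p = 0.731), and without HoxA9AA replicate 2 it was −1.31 and passed (adjusted p = 0.0429). The collagenase gene Mmp8 measured 8.07, 11.44 and 6.07 in HoxA9AA/Meis1 marrow, against 11.70 to 12.49 in HoxA9wt/Meis1 marrow. Its difference was −3.54, and −2.31 without HoxA9AA replicate 3, whose value was under the background level of 6.57. Leaving out 1 mouse at a time moved the number of higher targets at an unadjusted p under 0.05 to between 0 (without HoxA9wt replicate 3) and 3, with 1 without replicate 1 of either group and 2 without HoxA9AA replicate 3, and that of lower ones to between 0 (without replicate 1 of either group) and 6 (without HoxA9AA replicate 2), with 1 without replicate 3 of either group.

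**Figure D4:**
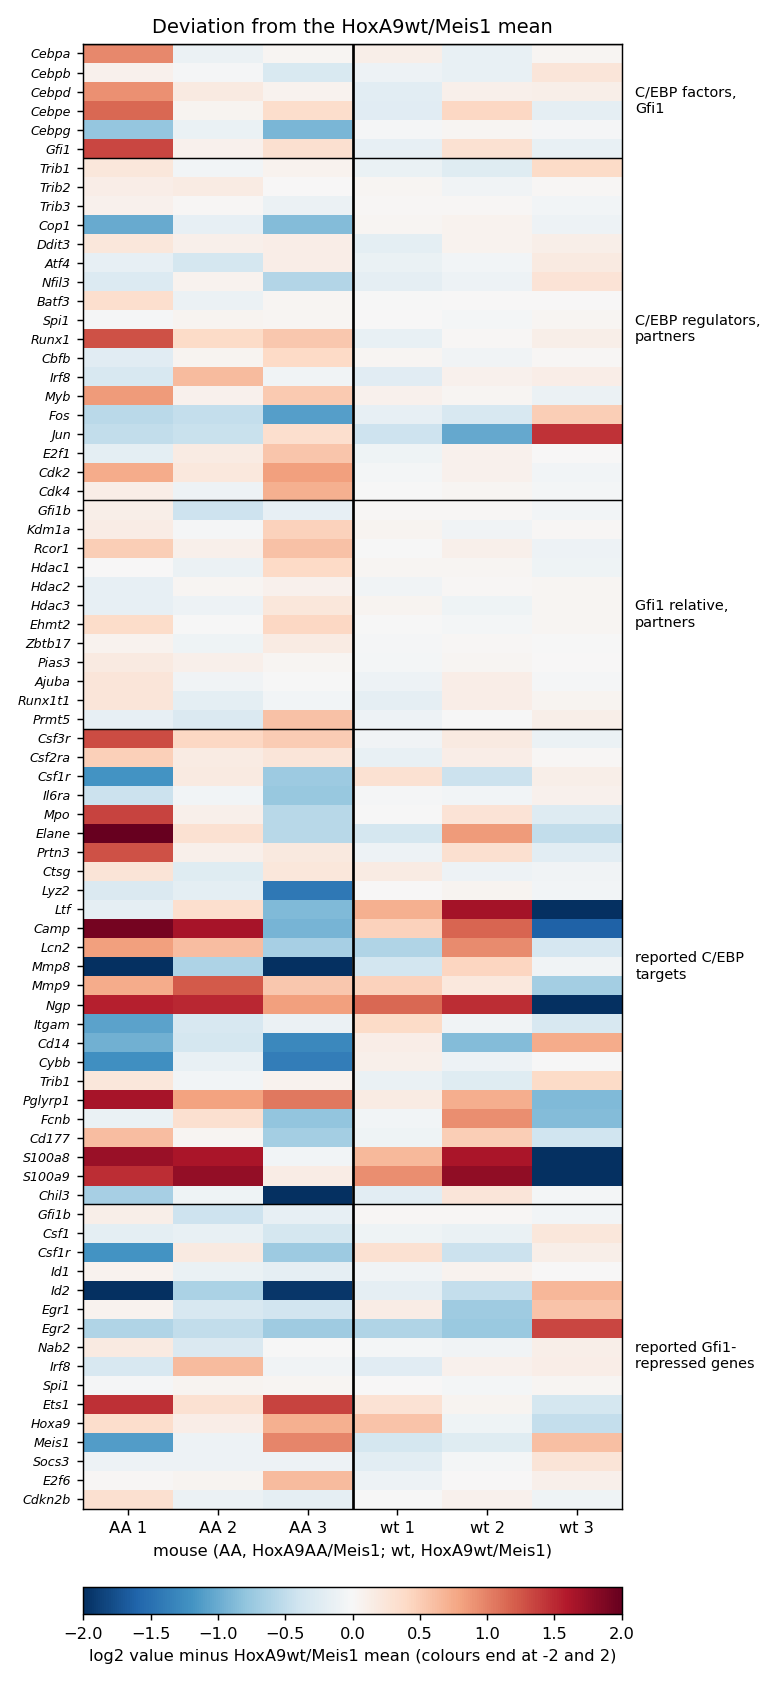
Deviation of each gene from its HoxA9wt/Meis1 mean (colour, log2, ending at −2 and 2) on the 6 arrays, with HoxA9AA mice left of HoxA9wt mice, for the 6 measured members, their regulators and partners, and reported targets. HoxA9AA replicate 1 is the highest mouse for 4 of the 6 members and for 11 of the 25 reported C/EBP targets. Of the 16 genes reported to be repressed by Gfi1, it is the lowest mouse for 4 and the highest for 5.

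HoxA9AA replicate 1, the mouse with the highest Cebpa, Cebpe and Gfi1, was the highest mouse for 11 of the 25 reported C/EBP targets, against 31.9% of all genes. For 9 measured primary granule genes, the markers of promyelocytes, the mean deviation from the HoxA9wt mean was 0.947, 0.034 and 0.112 in HoxA9AA replicates 1, 2 and 3, against 0.007, 0.322 and −0.329 in the HoxA9wt replicates. That is nearly the order of Gfi1 and Cebpe, and HoxA9AA replicate 1 was the highest mouse for 5 of the 9. Among those 5, Ctsg varied little, with 12.63 in that mouse, against 12.28 to 12.55 in HoxA9wt/Meis1 marrow. Ms4a3, Calr, Srgn and Fcnb were highest in other mice, so the mean does not stand for every gene of the list. Mpo, Elane, Prtn3, Ctsg and Fcnb are on both this list and that of C/EBP targets, so the 2 lists are not separate observations. Prtn3 was also the gene most like Gfi1 above. Elane, the neutrophil elastase gene, measured 12.71, 10.41 and 9.55 in HoxA9AA/Meis1 marrow, against 9.75, 10.96 and 9.61 in HoxA9wt/Meis1 marrow. Prss57, which encodes a related protease, measured 10.40, 8.03 and 9.06 in HoxA9AA/Meis1 marrow, against 7.59, 8.28 and 7.47 in HoxA9wt/Meis1 marrow. The part of the number of promyelocytes in the values of Cebpa, Cebpe and Gfi1 was not tested.

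Genes of later neutrophils followed another order. Their mean deviation over 14 genes was 0.588, 1.040 and −0.837 in HoxA9AA/Meis1 marrow, against 0.393, 0.992 and −1.385 in HoxA9wt/Meis1 marrow, so that replicate 2 of each group, and not HoxA9AA replicate 1, stood highest. HoxA9wt replicate 3 stood lowest. Of the 14, 9 had a higher mean, against 52.7% of all genes, and the median difference was 0.86. At an unadjusted p under 0.05, 1 was higher and 2 were lower, against 4.15% and 2.59% of all genes. Leaving out 1 mouse at a time gave 0 to 2 higher and 0 to 3 lower genes. The direction of Ly6g (1.57) and Mmp9 (0.84) was opposite to that of Il1r2 (−1.86), and none of the 3 passed (limma, adjusted p = 0.763 for Ly6g and 0.731 for the others). HoxA9wt replicate 3 was under the background level of 6.57 in both Ly6g (5.64) and Mmp9 (6.46), and without it their differences were 0.78 and 0.50. Without HoxA9AA replicate 2, Ly6g differed by 1.04.

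The 12 measured monocyte and macrophage genes all had a lower mean in HoxA9AA/Meis1 marrow, 5 of them at an unadjusted p under 0.05 (2.59% of all genes in this direction), and none passed the adjustment. Their mean deviation was −1.542, −0.180 and −1.287 in the HoxA9AA replicates, against 0.236, −0.274 and 0.038 in the HoxA9wt replicates. Cebpg deviated by −0.767, −0.137 and −0.907 in HoxA9AA/Meis1 marrow, against −0.027, 0.043 and −0.017 in HoxA9wt/Meis1 marrow, so that replicates 1 and 3 of the HoxA9AA group were low in both. Among the HoxA9wt mice the monocyte mean lay between −0.274 and 0.236, and Cebpg between −0.027 and 0.043. The part of the number of monocytes in the values of Cebpg was not tested. Cebpb, the member tied to macrophages, deviated by 0.093, −0.027 and −0.307 in HoxA9AA/Meis1 marrow, and the markers Ctss and Klf4 differed by −1.01 and −0.43, Ctss by −0.62 without HoxA9AA replicate 1. Mertk measured 6.14, 8.93 and 6.64 in HoxA9AA/Meis1 marrow, against 10.16, 9.51 and 9.72 in HoxA9wt/Meis1 marrow. Msr1 measured 5.99, 9.03 and 5.68 in HoxA9AA/Meis1 marrow, against 10.64, 9.58 and 9.48 in HoxA9wt/Meis1 marrow. HoxA9AA replicate 1 in both genes, and replicate 3 in Msr1, lay under the background level of 6.57, so their sizes of change are not exact. Without any 1 of 5 mice, all but HoxA9AA replicate 2, 2 or 3 monocyte genes were lower at an unadjusted p under 0.05. Without HoxA9AA replicate 2 the number was 7. In that setting Mertk and Msr1 passed the adjustment (limma, adjusted p = 0.0319 and 0.0446), with the mean of the HoxA9AA mice left under the background level.

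**Figure D5:**
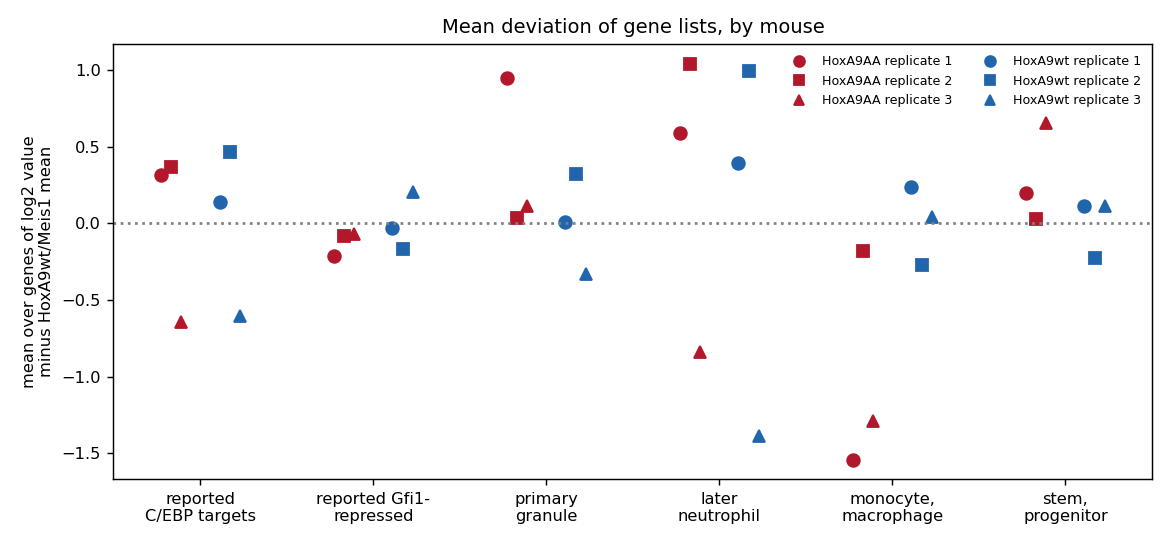
Mean over the genes of a list of the log2 value minus the HoxA9wt/Meis1 mean (vertical axis), by mouse, with HoxA9AA mice (red) left of HoxA9wt mice (blue). The primary granule list is highest in HoxA9AA replicate 1 (0.947), and the monocyte and macrophage list is low in HoxA9AA replicates 1 and 3 (−1.542 and −1.287).

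Of 16 measured genes reported to be repressed by Gfi1, 10 had a lower mean, 1 of them at an unadjusted p under 0.05. The mean was higher in 6, again 1 at that level. Over all genes, 52.7% had a higher mean, and the shares at that level were 4.15% higher and 2.59% lower. The 16 include Hoxa9 (0.40) and Meis1 (−0.08), and all 6 mice carried introduced HoxA9 and Meis1. The part of the introduced copies in these 2 values was not tested. Leaving out 1 mouse at a time gave 1 or 2 lower genes, with 2 without HoxA9AA replicate 1 or 2 or HoxA9wt replicate 2. It gave 0 to 2 higher genes, with 0 without HoxA9AA replicate 1 or 3 or HoxA9wt replicate 3, and 2 without HoxA9wt replicate 1. The median difference was −0.08, and none passed the adjustment. Id2, an inhibitor of basic helix-loop-helix factors, measured 7.39, 9.18 and 7.88 in HoxA9AA/Meis1 marrow, against 9.64, 9.34 and 10.48 in HoxA9wt/Meis1 marrow. The groups did not overlap, and the difference was −1.67 ± 0.50 (SE; limma, adjusted p = 0.731). HoxA9AA replicate 1 had the highest Gfi1 and the lowest Id2. HoxA9AA replicate 3 and HoxA9wt replicate 2 had nearly the same Gfi1 (7.93 and 7.91), with Id2 at 7.88 and 9.34. These are single mice, and the part of Gfi1 in the values of Id2 was not tested. Csf1r, the receptor gene of the macrophage growth factor, was also lowest in HoxA9AA replicate 1, with 8.81, 10.19 and 9.28 in HoxA9AA/Meis1 marrow, against 10.31, 9.58 and 10.13 in HoxA9wt/Meis1 marrow. Csf1r is on the monocyte list too, where that mouse was the lowest for 8 of 12 genes. Csf1, the gene of the macrophage growth factor, was under the background level of 6.57 in all 3 HoxA9AA mice (6.34 to 6.55), and no difference is given for it. The ETS factor gene Ets1 went against the name of the list, with 8.35, 7.19 and 8.23 in HoxA9AA/Meis1 marrow, against 7.18, 6.94 and 6.53 in HoxA9wt/Meis1 marrow. HoxA9AA replicate 1 was the lowest mouse for 4 of the 16 genes, against 20.2% of all genes, and the highest for 5, against 31.9%.

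Stress response genes, the setting in which C/EBPγ pairs with ATF4, were followed because of Cebpg. Of 15 genes 5 had a higher and 10 a lower mean, where 52.7% of all genes had a higher mean. None of the 15 was at an unadjusted p under 0.05 (1 lower gene without HoxA9AA replicate 3), and their median difference was −0.03. The zipper gene Ddit3 differed by 0.16 and Ddit4 by −0.25. Asns, asparagine synthetase, differed by −0.52, by −0.058 without HoxA9wt replicate 2 and by −0.78 without HoxA9wt replicate 3, and HoxA9wt replicate 2 stood alone at 10.42 where the other 5 mice lay between 8.84 and 9.12. Slc7a11 differed by −0.37, at 5.36 and 5.73 in the mean, under the level of 6.57 set by the olfactory receptor genes. Of 14 nucleolar genes, chosen because the protein of Cebpz acts in the nucleolus, 8 had a higher and 6 a lower mean, with 0 at an unadjusted p under 0.05 (1 higher gene without HoxA9AA replicate 2).

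Of 11 markers of stem and progenitor cells, the mean was higher for 8, against 52.7% of all genes. Of the 11, 2 were higher at an unadjusted p under 0.05, Erg (0.94) and Kit (1.44), against 4.15% of all genes. Leaving out 1 mouse at a time gave 1 to 4 such genes, with 4 without HoxA9AA replicate 2 and 1 without HoxA9AA replicate 1 or 3 or HoxA9wt replicate 2 or 3. Cd34 differed by 1.08, by 0.31 without HoxA9wt replicate 2 and by 1.70 without HoxA9wt replicate 1. Flt3, a cytokine receptor gene of progenitors named after its values were seen, went the other way by −0.96, with 6.92, 10.13 and 10.85 in HoxA9AA/Meis1 marrow, against 10.21, 9.87 and 10.69 in HoxA9wt/Meis1 marrow, so that HoxA9AA replicate 1 alone was low. The mean deviation of the 11 was 0.200, 0.028 and 0.653 in HoxA9AA/Meis1 marrow, against 0.114, −0.225 and 0.111 in HoxA9wt/Meis1 marrow, and its highest mouse, HoxA9AA replicate 3, was not that of Cebpa or Gfi1. The 11 include Meis1, which was also introduced in all 6 mice. It measured 8.50, 9.51 and 10.58 in HoxA9AA/Meis1 marrow, against 9.26, 9.36 and 10.21 in HoxA9wt/Meis1 marrow. Erg passed without HoxA9AA replicate 2, at a difference of 1.20 (limma, adjusted p = 0.0446). Of the remaining cell types, 8 of 9 B cell genes, 5 of 8 T and NK cell genes and 5 of 10 eosinophil, basophil and mast cell genes had a higher mean. The counts were 8 of 9 for stromal and endothelial genes and 0 of 9 for erythroid genes, against 52.7% of all genes. In the same order of lists, 5, 5, 6, 3 and 4 of the genes had a mean under the background level of 6.57. None of these genes passed the adjustment. Over the 9 erythroid genes the mean deviation was −0.527, −0.595 and −0.665 in HoxA9AA/Meis1 marrow, against −0.539, 0.826 and −0.287 in HoxA9wt/Meis1 marrow. HoxA9wt replicate 2 alone was thus high, and HoxA9wt replicate 1 lay at the level of HoxA9AA replicate 1.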

How the data were processed

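Bone marrow RNA of 6 mice, called biological replicates in the labels, was hybridised to 1 Affymetrix mouse gene array per mouse. The deposited values are log2 values, which per the submitters' processing notes were made by RMA in the package oligo for R. As a method, RMA corrects background, normalizes arrays by quantiles and sums up the probes of a set. No version is named there, and the log2 scale was also read from the range of the values. Arrays give no counts, and the number of mice limits the precision.

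Of 35556 probe sets, 21789 had 1 symbol in the platform annotation, 1621 with several were not used, and 12146 were unlisted. The brightest probe set stood for each of 999 genes with more than 1, which left 19938 genes. HoxA9AA/Meis1 was compared with HoxA9wt/Meis1 in R 4.3.3 with lmFit and eBayes of limma 3.58.1 (two-sided, no block, Benjamini-Hochberg over all genes, threshold 0.05), after the code was tested on simulated data. Every difference is HoxA9AA/Meis1 minus HoxA9wt/Meis1. The members, the 15 gene lists (179 genes, from general knowledge) and the alternatives were chosen with earlier results of these data known.

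The naming rule took all members, from each list described in detail up to 4 genes by p, genes of the lists of C/EBP regulators, Gfi1 partners and Gfi1-repressed genes with an unadjusted p under 0.05, the measured gene on each side of a member, and the 3 genes most like each member with a range of 1 or more. Flt3, the genes like Cebpg, the places of Csf3r and Cop1 by likeness, and Cd79a, Ms4a1, Cd3d and Cd3g were named after their values were seen. So were Hoxa9, Meis1, Mpo, Ctsg, Fcnb, Ms4a3 and Srgn, each for its place on a list. Gene order came from RefSeq (GRCm38.p6), to which 19855 genes matched and whose coordinates are those of its promoter table. The sources used here name no build for the annotation of the array. The alternatives were a block for the replicate number, each array left out, every probe set kept, probe sets averaged per gene, dropping genes under 6.82, quantile normalization, median centring, trend with robust, no moderation, and array weights.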

Additional observations from a re-analysis of the deposited data

How the results depend on the processing

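With all 6 arrays, 0 genes passed under every alternative. Without each array in turn, 0 to 48 genes passed, with 48 without HoxA9AA replicate 2 and 1 without HoxA9wt replicate 3, and none of the 6 members was among them. At an unadjusted p under 0.05, leaving out an array gave 356 to 1653 higher and 252 to 1149 lower genes, against 828 and 516 with all arrays. Dropping genes under the median gave 339 lower genes, since fewer genes were tested, and median centring gave 1027 higher and 392 lower. Differences without each array ranged from −0.038 to 0.51 for Cebpa, −0.17 to 0.042 for Cebpb, 0.13 to 0.55 for Cebpd, 0.20 to 0.75 for Cebpe, −0.84 to −0.45 for Cebpg and 0.21 to 0.83 for Gfi1. Signs turned for Cebpa without HoxA9AA replicate 1 (−0.038), for Cebpb without HoxA9AA replicate 3 (0.033) or HoxA9wt replicate 3 (0.042), and for Elane without HoxA9AA replicate 1 (−0.13, with a range of −0.13 to 1.45). The cause was not tested. Array weights moved Gfi1 to 0.41. With the replicate number as a block, 0 genes passed and Cebpg had an adjusted p of 0.891 (limma), at the same difference of −0.60. The numbers were not taken as pairs, since same-numbered mice deviated with r = −0.208, −0.103 and −0.013, across genes, and no HoxA9AA mouse correlated best with the HoxA9wt mouse of its number.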
